A study of Homo sapiens with 2 samples.

Results

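The mitosis and spindle genes are 51 genes whose products enter, build or end mitosis. They were taken as a list of names, chosen with earlier results of these data known. Every probe set annotated to 1 of these genes alone was used. All 51 had at least 1 measured probe set, against 12541 genes with one on the whole array. They held 99 probe sets, of which 91 were measured and 8 lay under the floor on both arrays. One more probe set, annotated to CENPA together with another gene, was not used. The samples were 2 arrays of K562 cells, a human line of chronic myeloid leukaemia origin that carries the BCR-ABL fusion. One array holds RNA from cells with the control retroviral vector pMSCV, the other from cells with a retrovirus that overexpresses PML4, an isoform of the promyelocytic leukaemia protein. Both cultures were selected with G418 for 3 weeks and grown in the same serum medium, per the labels. Each group is 1 array, so a difference has no replicate error and no test was possible. The labels do not say whether the selected cells were a clone or a pool.

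A cell enters mitosis when the kinase CDK1, bound to a B-type cyclin, is switched on by CDC25 phosphatases. Aurora and Polo-like kinases, kinesin motors and microtubule-binding proteins then build the spindle, and condensin compacts the chromosomes. The spindle checkpoint holds the anaphase-promoting complex in check until kinetochores are attached. Once CDC20 activates that complex, securin and cyclin B are destroyed, separase is freed and the chromatids part. Transcripts of many of these genes are made late in the cell cycle, and K562 cells divide continuously in culture.

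Many mitotic promoters are known to share 2 short elements. One is the box CCAAT, which the factor NF-Y binds. The other is the CHR, the cell cycle genes homology region, read here as TTTGAA or TTTAAA. The CHR is bound by the MuvB complex, through its LIN54 subunit, with MYBL2 and FOXM1 as activating partners in dividing cells. Promoters of 45 of the 51 genes were found in RefSeq's GRCh38.p14 annotation, from 250 bases before to 50 after the transcript start, with the first listed start taken for each gene. The promoters below are examples picked by name from genes with differences in both directions on these arrays. CDC20 and PLK1 had the highest log2 differences as deposited, while CCNB2, at 0.34, did not lie at an end. UBE2C, the lowest member, was not among the 45 promoters. CDC20, PLK1 and CCNB2 had a higher signal on the PML4 array, and SPC25 and MAD2L1 a lower one. Capitals mark the box CCAAT or its reverse ATTGG, the element TTTGAA or its reverse TTCAAA, and TTTAAA, which reads the same on both strands.
CDC20, chr1:43358731-43359030, plus strand: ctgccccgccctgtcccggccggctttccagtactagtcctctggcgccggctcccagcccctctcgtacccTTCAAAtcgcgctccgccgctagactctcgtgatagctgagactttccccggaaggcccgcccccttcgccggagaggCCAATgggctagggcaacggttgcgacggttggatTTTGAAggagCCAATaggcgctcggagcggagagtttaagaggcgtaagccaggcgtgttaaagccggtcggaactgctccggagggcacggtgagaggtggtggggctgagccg
PLK1, chr16:23678639-23678938, plus strand: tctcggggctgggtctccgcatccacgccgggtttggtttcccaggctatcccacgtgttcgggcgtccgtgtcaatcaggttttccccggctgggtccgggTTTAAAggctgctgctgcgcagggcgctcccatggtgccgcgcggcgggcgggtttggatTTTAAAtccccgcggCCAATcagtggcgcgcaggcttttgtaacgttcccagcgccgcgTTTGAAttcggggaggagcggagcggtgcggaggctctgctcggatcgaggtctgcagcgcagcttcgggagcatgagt
CCNB2, chr15:59104896-59105195, plus strand: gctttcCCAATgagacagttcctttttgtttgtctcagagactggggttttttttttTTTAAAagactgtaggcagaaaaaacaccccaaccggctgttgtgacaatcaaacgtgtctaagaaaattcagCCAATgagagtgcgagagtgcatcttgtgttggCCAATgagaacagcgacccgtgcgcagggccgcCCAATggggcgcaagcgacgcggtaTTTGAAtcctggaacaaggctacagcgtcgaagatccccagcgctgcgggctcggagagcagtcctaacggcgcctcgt
SPC25, chr2:168890381-168890680, minus strand: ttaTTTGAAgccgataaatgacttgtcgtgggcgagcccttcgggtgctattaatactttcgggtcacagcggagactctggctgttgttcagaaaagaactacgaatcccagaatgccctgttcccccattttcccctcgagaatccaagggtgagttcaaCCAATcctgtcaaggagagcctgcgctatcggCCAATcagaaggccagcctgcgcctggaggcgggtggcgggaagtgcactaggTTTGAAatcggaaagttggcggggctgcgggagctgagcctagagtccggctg
MAD2L1, chr4:120066799-120067098, minus strand: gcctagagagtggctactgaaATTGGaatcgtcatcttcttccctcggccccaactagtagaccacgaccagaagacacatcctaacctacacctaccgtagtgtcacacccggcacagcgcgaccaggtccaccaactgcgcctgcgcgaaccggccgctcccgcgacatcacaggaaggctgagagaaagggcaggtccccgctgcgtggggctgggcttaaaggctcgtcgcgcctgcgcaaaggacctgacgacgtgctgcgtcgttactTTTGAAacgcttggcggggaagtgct

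All 5 promoters held at least 1 box and 1 CHR-type element. In the CCNB2 promoter 4 boxes were found, 3 of them at -120, -87 and -54, followed by TTTGAA at -29 from the start. In the PLK1 promoter a box at -73 was followed by TTTGAA at -29. In the SPC25 promoter boxes at -88 and -56 were followed by TTTGAA at -3. In the CDC20 promoter TTTGAA at -65 lay between boxes at -100 and -55. In the MAD2L1 promoter the only box, at -229, and TTTGAA, at 25 after the start, lay far apart. The layout thus differed between promoters on each side.

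Across the 45 promoters, 32 (71.1%) held at least 1 box, 39 (86.7%) held TTTGAA or TTTAAA, and 28 (62.2%) held both kinds. Of 10153 promoters of genes measured on these arrays, 36.8% held a box, 16.1% a CHR-type element and 6.49% both. Over all 35116 promoters of this length in the annotation, the shares were 34.6%, 24% and 9.27%. With every listed start of the members taken, 59 in all, they were 67.8%, 76.3% and 54.2%. Both strands were searched, and a box and a CHR-type element can share at most 1 letter. Matches to TTTGAA or TTTAAA had a median first base at -32.5, and 43 of 60 began within 100 bases before the start or after it. Boxes had a median first base at -75. In the window at the first listed start CDC25B and CDC25C held neither kind, which does not show that these genes lack such elements. A CHR-type element stood in 15 of 18 promoters of members at least 25% higher on the PML4 array, and in both promoters of members at least 20% lower. It stood in 22 of 25 promoters of the members in between. A box stood in 15 of the 18 (83.3%), in both of the lower ones and in 15 of the 25 (60%). Both kinds stood in 72.2% of the 18, in both of the lower ones and in 52% of the 25. A match is a run of letters and not a measured binding site.

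**Figure D1:**
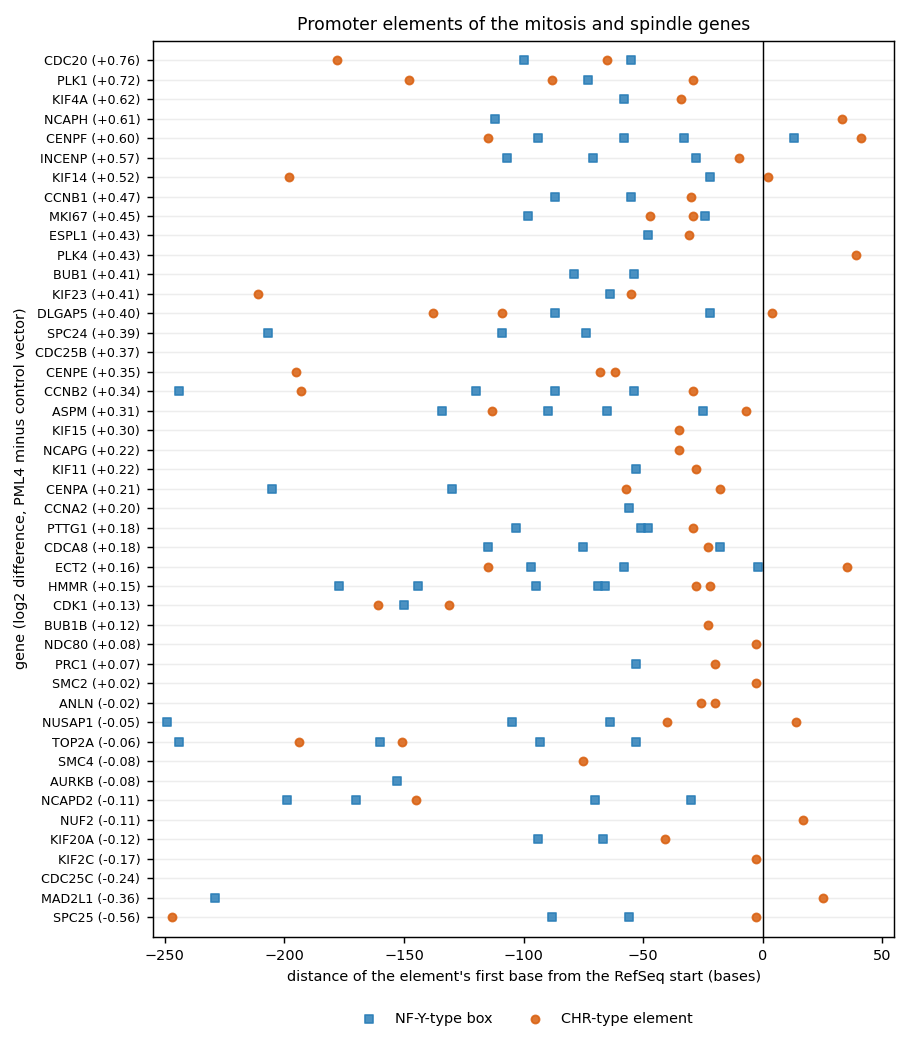
Position of NF-Y-type boxes (squares) and CHR-type elements (circles) in 45 promoters, as distance in bases from the RefSeq start on the horizontal axis. Genes are ordered from the highest log2 difference (CDC20, 0.76) to the lowest (SPC25, -0.56), and elements gather in the 100 bases before the start along the whole order.

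Both arrays measured most of these genes well above background. Signals are MAS5 intensities on a linear scale, and the floor was set at 72.4, the median over human probe sets and both arrays. All 51 genes lay above the floor on both arrays at the probe set that stood for the gene, its measured one with the highest mean log2 signal. Of these, 48 also lay above 465, the 75th percentile, on both arrays. The exceptions were PLK1, INCENP and UBE2C. The share of human probe sets above the floor was 51.9% with the control vector and 48.1% with PML4. PML itself, the transduced gene, was read by 10 probe sets. Of the 9 measured ones 5 were higher with PML4 and 4 lower. PML was 6.41-fold higher at the probe set that stood for it, at 216.3 and 1386.8, and 7.12-fold higher at another, at 98.1 and 698.5. One was 5.92-fold lower, at 927.2 and 156.5, and the other 6 measured ones lay within 2-fold. Of the markers of K562 and erythroid cells, added after their values were seen, 8 were measured, 5 higher and 3 lower with PML4. HBZ, at 1401.4 and 5465.5, was 3.90-fold higher and EPOR, at 760.3 and 364.8, was 2.08-fold lower. Other EPOR probe sets were at 524.4 and 425.6, at 314.3 and 257.3 and, in the other direction, at 164.2 and 287.7. The other 6 markers lay within 2-fold at the probe set that stood for each. TFRC was 2.04-fold higher at another probe set, and GATA1 and TAL1 had probe sets in both directions. Of 20 markers of other cell types 9 were measured, and 9 were under the floor on both arrays: CD14, CD2, CD8A, MS4A1, CD79B, COL1A2, COL3A1, PDGFRA and CDH1. Of the 3 measured T cell markers CD3D, at 2478.0 and 4996.3, and CD3G, at 126.1 and 329.3, were past 2-fold higher, while CD3E was at 105.9 and 55.3. The other measured ones included high signals on both arrays: EPCAM at 5870.4 and 6203.1, LYZ at 3206.4 and 3134.6 and KRT8 at 2010.8 and 2066.1. The rest were COL1A1 at 394.2 and 278.6, CD79A at 205.5 and 170.7 and CSF1R at 76.3 and 42.3. What part any of these has in the mitotic values was not tested.

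Signals of the mitosis and spindle genes were on the whole slightly higher on the PML4 array, and none reached 2-fold. The log2 difference, PML4 minus control vector, was above 0 for 37 genes and below 0 for 14. Its median was 0.22, with quartiles at -0.01 and 0.41, and it ran from -0.81 for UBE2C to 0.76 for CDC20. Over all 12541 genes the median was -0.05 and 44.7% were higher. Over the 7291 genes above 465 on both arrays the median was 0.03 and 53.8% were higher. For the 48 members in that range the median was 0.22 and 35 were higher.

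Called genes are those that differ by at least 2-fold. None of the 51 members was called, against 4.43% of all genes, and none of their 91 measured probe sets, against 4.52% of all measured probe sets. At least 1.5-fold higher were 5 members (9.8%), against 5.7% of all genes, namely CDC20, PLK1, KIF4A, NCAPH and CENPF. At least 1.5-fold lower was 1 member (1.96%), UBE2C, against 11.8%. At least 25% higher were 21 members (41.2%), against 16.3% of all genes. At least 20% lower, the same ratio in the other direction, were 3 members (5.88%), UBE2C, SPC25 and MAD2L1, against 25.1%. Among all genes above 465 on both arrays, where most members lie, these shares were 16.9% and 14.7%. In that range 4.38% of genes were at least 1.5-fold higher and 4.64% at least 1.5-fold lower. At least 2-fold higher were 0.603% and at least 2-fold lower 0.699%, so calls were rare at such signals. The excess of members on the higher side thus lay at small sizes.

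These sizes are close to the disagreement between probe sets. Over 16239 pairs of probe sets of 1 gene, both above the floor on both arrays, the median gap between their log2 differences was 0.29, and the SD for a single probe set was 0.35. For 54 such pairs within the members the median gap was 0.23 and the SD 0.24. A signal 25% higher is a difference of 0.32 on this scale, so a single gene at just that size lies within the SD over all genes. Beyond 0.35 lay 18 members on the higher and 3 on the lower side. The share of all genes beyond 0.35 was not counted. At the nearby size of 0.32, 16.3% of all genes lay on the higher and 25.1% on the lower side. Among genes above 465 on both arrays these shares were 16.9% and 14.7%. For 33 pairs of member probe sets above 465 on both arrays the SD was 0.21. That spread holds no error between arrays or cultures. In bulk RNA, a larger share of cells in mitosis and more of these transcripts in each cell cannot be told apart.

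**Figure D2:**
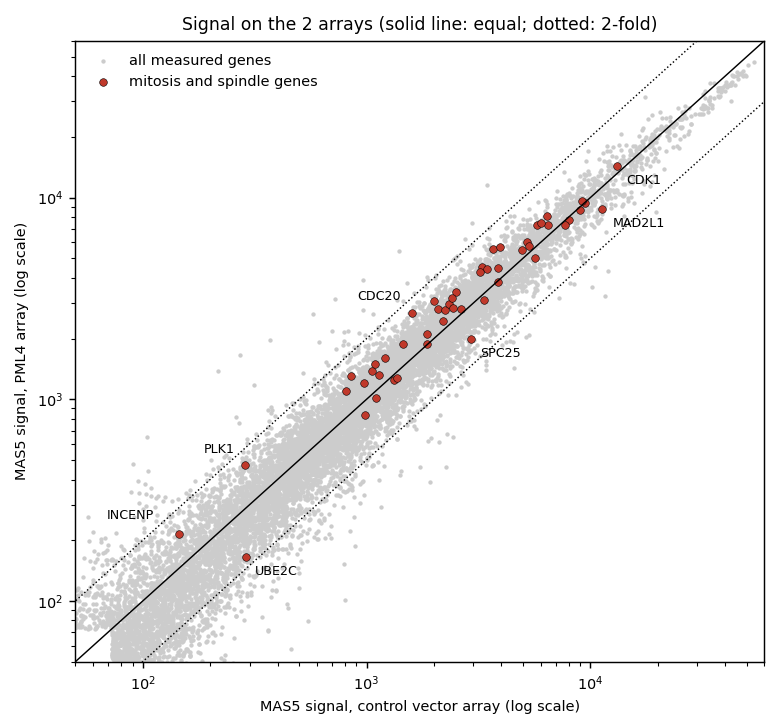
MAS5 signal on the control vector array (horizontal, log scale) against the PML4 array (vertical, log scale), 1 point a gene, with the 51 mitosis and spindle genes in red over all measured genes in grey. All 51 red points lie between the dotted 2-fold lines, and 37 of them lie above the line of equal signal.

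Of the regulators of mitotic entry, 6 of 7 had a higher signal on the PML4 array, with a median log2 difference of 0.34. CDK1, the kinase that drives entry, was at 13196.7 with the control vector and 14427.9 with PML4, a difference of 0.13; pairs of signals below keep this order. Its 4 probe sets all lay higher, between 0.08 and 0.23. CCNB1, the cyclin B1 partner of CDK1, was at 3279.9 and 4551.3, which is 1.39-fold higher. Its other probe set was at 1546.5 and 1755.8. CCNB2, cyclin B2, was at 6372.9 and 8064.0, 1.27-fold higher. CCNA2, the cyclin of S phase and early mitosis, was at 5216.2 and 6006.0, and at 2547.0 and 3466.7 at its other probe set. All 3 cyclins therefore lay higher at each measured probe set.

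The CDC25 phosphatases, which remove the inhibitory phosphates from CDK1, differed in direction. CDC25B was at 1449.4 and 1872.2, 1.29-fold higher. CDC25C was at 986.8 and 833.0, 1.18-fold lower, and its second measured probe set was lower too, at 128.5 and 83.1. FOXM1, the transcription factor of the late cell cycle, was at 809.0 and 1104.6, 1.37-fold higher, read by 1 probe set of the _x_at kind, which can also bind related transcripts. Partners on CHR promoters outside the list showed smaller differences. They were chosen after their values were seen. MYBL2 was at 1288.3 and 1488.8, LIN9 at 690.3 and 583.6 and LIN54 at 312.6 and 288.6.

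Among 6 mitotic kinases 5 had a higher signal, with a median log2 difference of 0.39. PLK1, the Polo-like kinase that acts from entry to cytokinesis, was at 286.7 and 471.0, 1.64-fold higher at its only probe set. Its control signal lay under 465, and the log2 difference of PLK1 was 0.02 when the floor was raised to 465. AURKA, the kinase of centrosomes and spindle poles, was at 3444.4 and 4430.0, 1.29-fold higher, and at 2261.1 and 3508.1 at its second measured probe set. TTK, the checkpoint kinase MPS1, was at 2233.1 and 2756.7, 1.23-fold higher.

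AURKB, the catalytic subunit of the chromosomal passenger complex, was the exception. It was at 1321.6 and 1248.5, 1.06-fold lower, and a second probe set read 201.3 and 142.1. BUB1, a kinase of the kinetochore, was at 3226.5 and 4293.1, 1.33-fold higher. Its other 3 measured probe sets lay between -0.09 and 0.33 on the log2 scale. PLK4, the kinase that starts centriole duplication, was at 2083.4 and 2799.6, 1.34-fold higher, while another of its probe sets was at 1764.4 and 1679.7. For BUB1 and PLK4 the direction therefore depends on the probe set.

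The 3 genes grouped here under the spindle checkpoint had no common direction. The checkpoint kinase TTK, 1.23-fold higher, is given above with the mitotic kinases. BUB1B, the checkpoint protein BUBR1, was at 5303.7 and 5774.9, 1.09-fold higher. BUB3, its binding partner, was at 9430.6 and 9363.2, a log2 difference of -0.01 that turned to 0.04 when all genes were centred on their median. Of its 5 measured probe sets 4 lay between -0.02 and 0.08, and the other, at 196.0 and 133.1, was at -0.56. That one alone stood for BUB3 when probe sets of the _x_at and _s_at kinds were left out. MAD2L1, the protein MAD2 that binds CDC20 in the checkpoint complex, was at 11283.8 and 8781.9, 1.28-fold lower. A second probe set was at 4413.9 and 5568.8, which is higher, and the other at 538.7 and 417.4. MAD2L1 was thus lower at 2 of its 3 probe sets.

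Genes of the anaphase-promoting complex pathway differed in both directions, with the list's highest and lowest values as deposited. After quantile normalization PLK1 and INCENP, at 0.80 and 0.73, lay above CDC20, at 0.71, and after loess centring likewise. CDC20, the activator of the complex, was at 1589.5 and 2685.5, 1.69-fold higher at its only probe set. UBE2C, the ubiquitin-conjugating enzyme that works with the complex, was at 288.9 and 164.5, 1.76-fold lower at its only probe set. Both UBE2C signals lay under 465, where the scale is less precise. ESPL1, the protease separase, was at 2516.2 and 3392.2, 1.35-fold higher, and its second probe set lay higher still, at 1558.7 and 2686.9. PTTG1, the separase inhibitor securin, was at 6459.3 and 7338.4, 1.14-fold higher, read by 1 _x_at probe set.

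At kinetochores and centromeres 5 of 7 genes had a higher signal. The 4 subunits of the NDC80 complex, which ties microtubules to the kinetochore, differed in direction. NDC80 was at 2640.2 and 2792.8 and NUF2 at 3349.7 and 3105.7, differences of 0.08 and -0.11 on the log2 scale. SPC24 was at 1057.5 and 1383.7, 1.31-fold higher. SPC25, which pairs with SPC24 at the base of that complex, was at 2941.8 and 1992.0, 1.48-fold lower. Both of these were read by 1 measured probe set each.

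CENPA, the centromeric histone H3 variant, was at 1140.6 and 1323.3, 1.16-fold higher. CENPE, a kinetochore kinesin, was at 2327.5 and 2970.4, 1.28-fold higher. CENPF, a large kinetochore protein of late G2 and mitosis, was at 3664.1 and 5543.0, 1.51-fold higher. A second CENPF probe set showed nearly equal signals, at 770.1 and 764.8, and another was at 42.2 and 115.2. Of the passenger complex, INCENP, the scaffold that activates AURKB, was at 145.2 and 215.8, 1.49-fold higher, with both signals under 465. CDCA8, the subunit borealin, was at 1860.1 and 2100.2, 1.13-fold higher.

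Of 7 kinesins 5 had a higher signal, with a median log2 difference of 0.30. KIF4A, a chromokinesin that also acts at the midzone, was at 2003.9 and 3071.6, 1.53-fold higher. KIF14, a kinesin of cytokinesis, was at 3957.9 and 5694.1, 1.44-fold higher, but its second probe set was at 2800.9 and 2597.5. KIF23, the motor subunit of centralspindlin, was at 1214.5 and 1610.5, 1.33-fold higher, and a second probe set read 368.1 and 323.9. KIF14 and KIF23 therefore have 1 probe set on each side.

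KIF15 and KIF11, which push spindle poles apart, were at 972.8 and 1201.6 and at 2425.1 and 2827.6, 1.24-fold and 1.17-fold higher. KIF20A, a midzone kinesin, was at 1098.8 and 1013.1, 1.08-fold lower. KIF2C, the microtubule-depolymerising kinesin MCAK, was at 5666.6 and 5030.8, 1.13-fold lower, with its second probe set at 1499.5 and 1450.0.

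Among 8 genes of spindle assembly, midzone and cytokinesis 6 had a higher signal, most by small amounts. DLGAP5, a spindle protein also called HURP, was at 2413.3 and 3175.4, 1.32-fold higher. TPX2, the activator of AURKA, was at 5804.0 and 7323.6, 1.26-fold higher. ASPM, a spindle pole protein, was at 6024.9 and 7467.8, 1.24-fold higher, and its 3 probe sets lay between 0.25 and 0.38 on the log2 scale. The probe sets of ASPM thus lay close together.

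ECT2, the exchange factor that activates RhoA in cytokinesis, was at 2186.1 and 2446.6, 1.12-fold higher. HMMR, a hyaluronan receptor that binds spindle microtubules, was at 4971.7 and 5507.7, and at 2631.2 and 2884.5. PRC1, which bundles midzone microtubules, was at 9184.3 and 9662.1. All 3 genes thus lay slightly higher at the probe sets that stood for them. ANLN, the actin-binding protein anillin, was at 3849.6 and 3807.7, a log2 difference of -0.02 whose sign turned with centring on the median gene. NUSAP1, a microtubule-bundling protein, was at 8027.9 and 7747.0 and at 1921.0 and 2165.0. Neither of these genes showed a difference beyond 1.04-fold at the probe set that stood for it.

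Condensin subunits and chromosome proteins centred near no difference, with a median of 0.02 over 7 genes. SMC2 and SMC4, the ATPases of condensin, were at 1857.8 and 1877.3 and at 7723.4 and 7300.7. The second SMC2 probe set was at 1328.6 and 846.8, and SMC2 turned to a small lower signal after quantile normalization and after loess centring. NCAPD2, a subunit of condensin I, was at 1368.8 and 1269.2, 1.08-fold lower. NCAPH, the kleisin of condensin I, was at 855.2 and 1303.6, 1.52-fold higher. NCAPG, another subunit, was at 3858.0 and 4500.9 and at 2942.2 and 3003.2. Subunits of 1 complex thus lay on both sides, as those of the NDC80 complex did.

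TOP2A, the topoisomerase that untangles chromatids, was at 9027.7 and 8637.8, 1.05-fold lower, and lower at all 3 probe sets. MKI67, the proliferation marker Ki-67 that coats mitotic chromosomes, was higher at all 4 probe sets. They were at 1094.8 and 1498.1, 1083.3 and 1257.8, 847.3 and 1177.0, and 573.7 and 657.6. The probe set that stood for MKI67 differed by 1.37-fold.

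**Figure D3:**
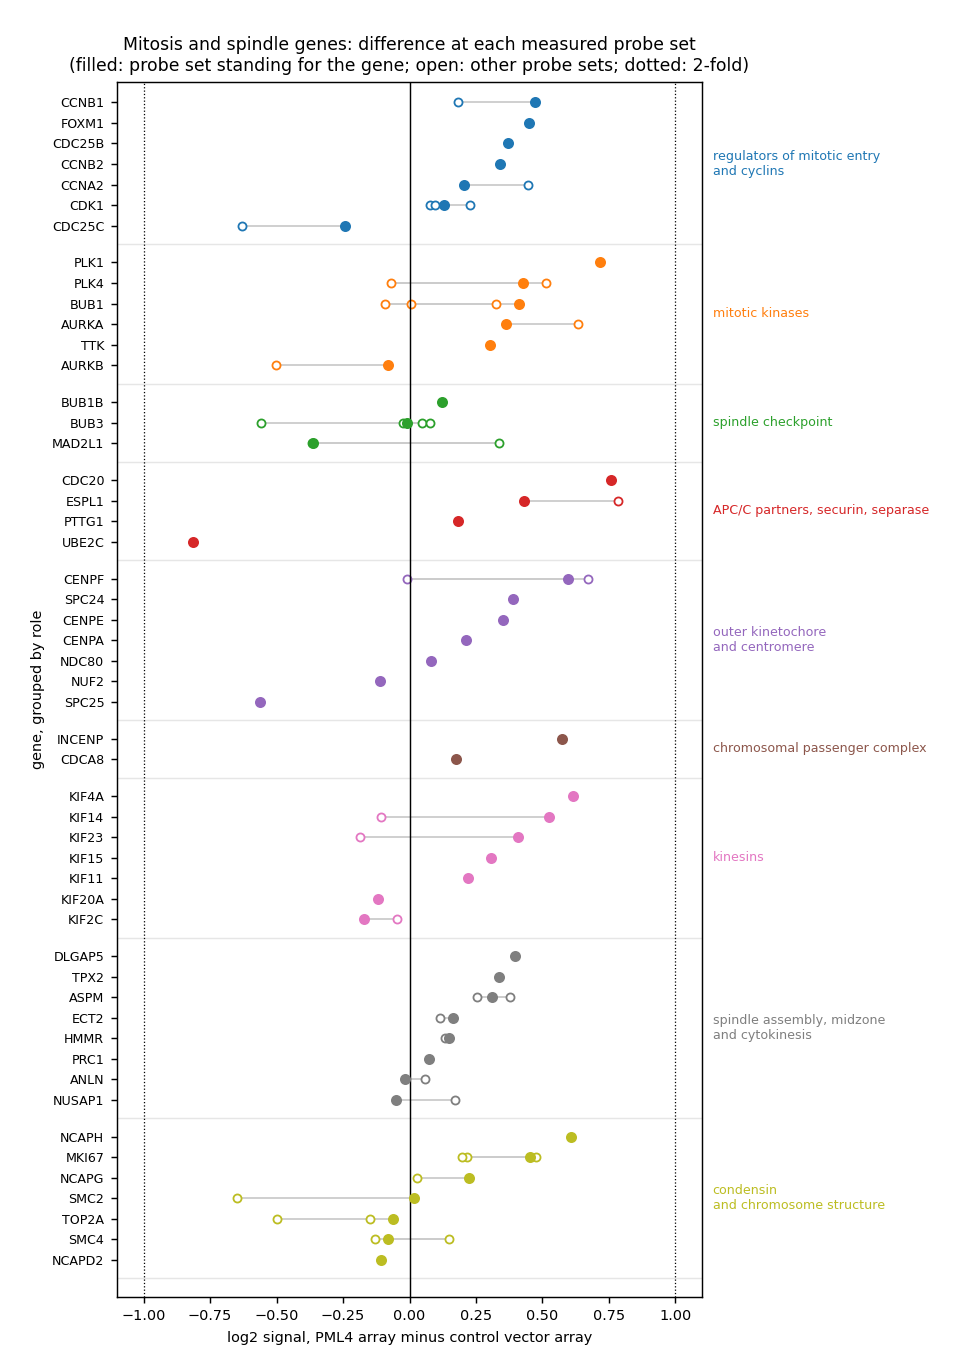
Log2 signal on the PML4 array minus that on the control vector array (horizontal) for every measured probe set of the 51 genes, grouped by role. Filled points are the probe set that stands for the gene and open points its others. Points lie within the dotted 2-fold lines, and 11 genes have probe sets on both sides of 0.

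Of the 51 genes, 25 had more than 1 measured probe set. In 10 of these all probe sets lay higher on the PML4 array, namely CDK1, CCNB1, CCNA2, AURKA, ECT2, ESPL1, NCAPG, HMMR, ASPM and MKI67. In 4 all lay lower, namely CDC25C, AURKB, KIF2C and TOP2A. The other 11 were mixed, and 26 genes rest on 1 probe set. Counted by probe set, 62 of 91 were higher and 29 lower, against 43.1% higher of all measured probe sets. CDC20, PLK1, UBE2C and SPC25, the ends of the list as deposited, have no second measured probe set to set beside the first. In RefSeq 14 members have a pseudogene named after them, UBE2C with 5 of them, and such copies can share signal.

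A further 82 mitotic genes outside the list showed a smaller shift. Of these 79 were measured, 50 with a higher and 29 with a lower signal, and their median log2 difference was 0.10. At least 25% higher were 18 (22.8%) and at least 20% lower 9 (11.4%). Over all genes 44.7% were higher, 16.3% by at least 25%, and 25.1% were at least 20% lower. Over genes above 465 on both arrays these shares were 53.8%, 16.9% and 14.7%. Called was 1 of the 79 (1.27%), against 4.43% of all genes. That gene was CENPH, a subunit of the inner kinetochore, at 4046.9 and 1848.9, 2.19-fold lower. It was read by 1 _x_at probe set. The next lower ones were KIFC1, a minus-end kinesin, at 495.7 and 326.2, KNTC1, the checkpoint protein ROD, at 3673.9 and 2422.8, and SGO1, the protector of centromeric cohesion, at 397.3 and 266.4.

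On the higher side CCNF, the F-box protein cyclin F, was at 784.2 and 1346.3, 1.72-fold higher, with its second probe set at 148.2 and 183.9. BORA, an activator of AURKA toward PLK1, was at 544.0 and 795.5. CLASP2, a microtubule plus-end protein, was at 1981.3 and 2826.3, with its other 4 measured probe sets on both sides. CEP55, which marks the midbody, was at 879.6 and 1245.8. These genes differed by 1.42-fold to 1.72-fold.

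Genes of DNA replication and S phase had a median log2 difference of 0.01, with 15 of 28 higher. At least 25% higher was 1 gene (3.57%), E2F1 at 248.1 and 353.7 but lower at another probe set, at 230.3 and 180.4. At least 20% lower were 3 (10.7%), TK1 at 2111.9 and 1623.2, CDT1 at 3363.8 and 2604.6 and PRIM1 at 4126.9 and 3242.8. Over all genes 16.3% were at least 25% higher and 25.1% at least 20% lower. Whether the mitotic lists differ from the S phase list beyond the error between cultures could not be tested with 1 array a group.

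**Figure D4:**
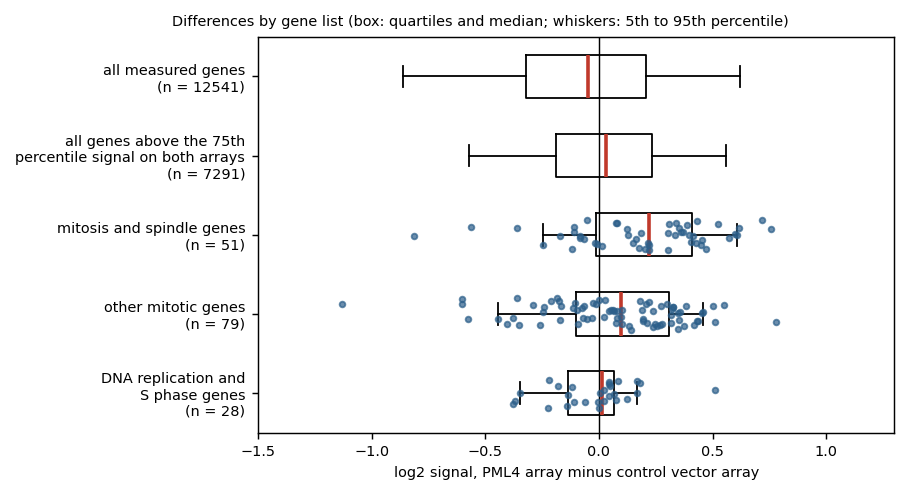
Log2 signal on the PML4 array minus that on the control vector array (horizontal) for 5 sets of genes, with boxes for the quartiles and median, whiskers from the 5th to the 95th percentile, and points for single genes of the 3 short lists. The median is 0.22 for the mitosis and spindle genes, 0.10 for other mitotic genes, 0.01 for DNA replication and S phase genes and -0.05 for all measured genes.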

How the data were processed

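Total RNA of 2 K562 cultures was hybridised to 1 Affymetrix array each, after labelling of 6 µg of RNA per the labels. The authors deposited MAS5 signal intensities on a linear scale, per the submitters' processing notes; its version and settings are not given in those notes. MAS5 scales each array to a common target, and the arrays were used as scaled. The table holds 54613 human probe sets, of which 29370 were measured, meaning above the floor on at least 1 array. Lower signals were set to the floor, and log2 was then taken. GEO's annotation of the array named 1 gene for 41097 probe sets, several for 1801 and listed none for 11721. Of those with 1 gene, 41043 matched a RefSeq gene. A gene took its measured probe set of highest mean log2 signal, and signal was compared only within a probe set.

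With 1 array a group no test was made and no p-value is given. Precision is limited by the number of arrays. The genes named are all members by role, and, of other mitotic genes, those past 2-fold and the 4 largest differences in each direction above the floor on both arrays. Markers, DNA replication genes past 25%, MYBL2, LIN9 and LIN54 were added after their values were seen. Members and lists were chosen with earlier results of these data known. Alternatives were other floors, a pseudocount of 32, centring, quantile normalization, loess with a span of 0.4, other choices of probe set, no filter and other call sizes. Scripts ran in Python 3.11.15 with pandas 2.3.3 and statsmodels 0.14.6 and were tested on simulated data. The simulated differences were larger than that of any member, so recovery of differences of the members' size was not tested.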

Additional observations from a re-analysis of the deposited data

How the results depend on the processing

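The members' median log2 difference stayed above 0 in all 9 alternatives to the processing, between 0.17 and 0.27, and the count of members called at 2-fold was 0 in each. A floor at the 25th percentile and the lack of a filter could not change any member, as all 51 stood above the floor on both arrays. Centring moved every gene by the same amount. Quantile normalization gave 0.18, loess centring 0.19 and the mean over probe sets 0.18, with all-gene medians of -0.01, -0.01 and -0.06. Members with a higher signal numbered 36 of 51 after either of the first 2 of these and 25 of 38 when only probe sets with neither an _x_at nor an _s_at ending were used. The share of all genes that were higher was 49.47% with quantile normalization, 49.45% with loess centring and 43.51% with those probe sets alone. As reported, 37 of 51 members and 44.69% of all genes were higher. Quantile normalization and loess centring thus each narrowed the gap between members and all genes. With calls at 1.5-fold 6 members passed, and with calls at 25% higher or 20% lower 24. The median of the other mitotic genes ran from 0.08 to 0.15. With the same restriction, which removes the only probe set of CENPH, 0 of 61 were called, against 4.71% of all genes. Of single members 44 kept their sign in every alternative that measured them, and 7 changed it in at least 1: ANLN, BUB3, KIF23, MAD2L1, NUSAP1, PLK4 and SMC2. For the 26 members with 1 measured probe set the mean over probe sets could not change the value. The restriction to probe sets of neither ending could only keep or remove these members. Under that restriction MAD2L1 was at 0.34, PLK4 at -0.07, KIF23 at -0.18 and SMC2 at -0.65. No paired analysis was possible because each group holds 1 array.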
